A study of Homo sapiens with 3 samples.

Results

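This account describes 10 mature miRNAs that are known from neurons and other neural cells, as measured by small RNA-seq in a human embryonic kidney cell line. They were chosen by name, with earlier results of these data in view, out of 2590 mature miRNAs in the count table, of which 1351 endogenous ones had any count. The choice was partly selected on the measured levels, so the levels below are a description and carry no test. The cells, Flp-In T-REx 293, derive from HEK293 and express the tetracycline repressor. Each of the 3 groups gave 1 library, and in each the cells had been transduced with a lentivirus. The control group received the empty vector, and the other groups received vectors that encode miR-1 or miR-122. The encoded hairpin was spliced out with an intron of a GFP transcript under a doxycycline-responsive promoter. All groups, the control included, went through 6 days of Geneticin selection (1 mg/mL) and 7 days of doxycycline (1 ug/mL), and 1000 ng of total RNA entered each library. HEK293 cells were made from embryonic kidney tissue and have been described as having neural-like traits, and the question asked of the table was which neural miRNAs the line expresses.

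MicroRNAs are RNAs of about the length printed below that guide Argonaute proteins to mRNAs, mainly through the seed near their 5′ end. A hairpin precursor is cut into a 5p and a 3p arm, of which usually one accumulates as the guide. Among the miRNAs described here, miR-7 is abundant in neuroendocrine cells and is bound by a circular RNA in brain, miR-9 acts in neural progenitors, and miR-128 and miR-218 are abundant in neurons, miR-218 above all in motor neurons. The adjacent genes of miR-132 and miR-212 respond to neuronal activity, miR-129 is enriched in neurons, and miR-219 is best known from the maturation of oligodendrocytes. The name neuron-associated refers to this background and not to the identity of the sequenced cells.

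All 10 mature sequences were found in RefSeq (GRCh38.p14 table). They are shown 5′ to 3′ with the seed, bases 2 to 8, in capitals, since the seed sets which members can act on the same target sites.
hsa-miR-7-5p: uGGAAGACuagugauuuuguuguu
hsa-miR-9-5p: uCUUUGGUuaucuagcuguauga
hsa-miR-9-3p: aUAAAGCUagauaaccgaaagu
hsa-miR-128-3p: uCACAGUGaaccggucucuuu
hsa-miR-129-2-3p: aAGCCCUUaccccaaaaagcau
hsa-miR-132-3p: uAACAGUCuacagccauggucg
hsa-miR-132-5p: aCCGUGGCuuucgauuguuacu
hsa-miR-212-3p: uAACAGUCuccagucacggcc
hsa-miR-218-5p: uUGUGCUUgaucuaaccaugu
hsa-miR-219a-5p: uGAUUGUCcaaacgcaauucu
The 10 sequences held 9 different seeds, and the one seed found more than once was that of miR-132-3p and miR-212-3p. Those 2 sequences were identical from base 1 to base 9 and at 17 of the 21 positions compared without gaps. G and C made up 31.8% (miR-9-3p) to 57.1% (miR-212-3p) of the bases.

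The hairpins were placed on GRCh37, the build named in the labels as hg19, by an exact match of the RefSeq hairpin, or of its 3p arm in the case of MIR7-1, and read against GENCODE v44 lifted to that build. The 3p arm of MIR7-1 lay at chr9:86584686-86584707 (minus strand) within HNRNPK, at a position that is exonic in at least 1 annotated transcript. HNRNPK encodes a broadly expressed RNA-binding protein. MIR7-2 lay at chr15:89155056-89155165, opposite the miRNA gene MIR3529 and outside annotated genes other than miRNA genes. MIR7-3 lay in an intron of the non-coding gene MIR7-3HG at chr19:4770682-4770791. The MIR9 genes lay in exons of non-coding RNAs, MIR9-1 at chr1:156390133-156390221 in MIR9-1HG, MIR9-2 at chr5:87962671-87962757 in LINC00461 and MIR9-3 at chr15:89911248-89911337 in MIR9-3HG. Introns of protein-coding genes held MIR128-1 (R3HDM1, chr2:136422967-136423048), MIR128-2 (ARPP21, chr3:35785968-35786051), MIR218-1 (SLIT2, chr4:20529898-20530007) and MIR218-2 (SLIT3, chr5:168195151-168195260). SLIT2 and SLIT3 encode secreted axon guidance ligands. MIR132 (chr17:1953202-1953302) and MIR212 (chr17:1953565-1953674) were 263 bases apart on the minus strand, outside other annotated genes. MIR129-2 lay at chr11:43602944-43603033 in an intron of non-coding genes, MIR219A1 at chr6:33175612-33175721 opposite an exon of a non-coding gene, and MIR219A2 at chr9:131154897-131154993 in an exon of MIR219A2HG. MIR9-1, MIR9-2, MIR218-2 and MIR219A2 lay on the minus strand, and the hairpins not named with a strand on the plus strand.

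The libraries held 1636834 (control), 2892684 (miR-1) and 2577292 (miR-122) counts of mature miRNAs. Synthetic hairpins, which include the induced miRNAs, took 0.0216%, 38.1% and 24.4% of these. Levels are therefore given in CPM, here counts per 1000000 endogenous miRNA counts, of which there were 1636481, 1791702 and 1947669, so that 1 count was worth 0.611, 0.558 and 0.513 CPM. Intervals are 95% intervals and cover counting error only, because there were no replicates and the reads carried no molecular identifiers.

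Together the 10 miRNAs made up 7.73% of endogenous counts in the control library (95% Wilson interval 7.68% to 7.77%), 7.11% in the miR-1 library (7.07% to 7.14%) and 7.36% in the miR-122 library (7.32% to 7.40%). Most of this was miR-7-5p, which alone held 64.9%, 63.0% and 59.1% of the counts of the 10. With miR-218-5p and miR-128-3p it held 92.9%, 92.8% and 93.4%. The remaining 7 miRNAs summed to 0.547%, 0.513% and 0.489% of endogenous counts. Only miR-7-5p ranked among the 10 most abundant endogenous miRNAs, and in every library 4 of the 10 ranked among the 100 most abundant. Within the control library the highest of the 10 had 3729 times the counts of the lowest.

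**Figure D1:**
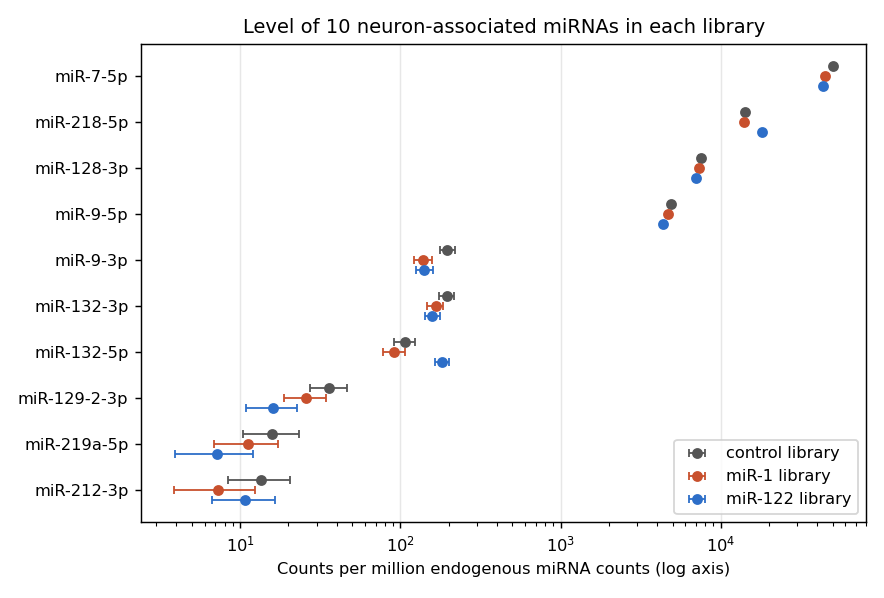
Level of each of the 10 miRNAs in each library, in CPM of endogenous miRNA counts on a log axis. Points are single libraries and bars are 95% Poisson intervals; miR-7-5p, miR-218-5p, miR-128-3p and miR-9-5p lie at 4373 CPM or more in every library and the other 6 at 197 CPM or less.

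By level, miR-7-5p came first. It had 82045 counts in control, 80222 in miR-1 and 84683 in miR-122, and ranked 4 among endogenous miRNAs in each library. These were 50135, 44774 and 43479 CPM. The 3 values lay close together, with control the highest. In the RPM values deposited by the authors, whose denominator includes the induced miRNAs, the same counts read as 50124, 27733 and 32857, so that the order of the miR-1 and miR-122 libraries and the size of the gap to control changed with the denominator. In the control library miR-7-5p stood between miR-92a-3p, which had 1.27 times its counts (95% interval 1.26 to 1.29), and miR-20a-5p, which it exceeded 1.25-fold (95% interval 1.24 to 1.26).

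Next came miR-218-5p, the SLIT intron miRNA, with 23178 counts in control, 24901 in miR-1 and 35446 in miR-122, or 14163, 13898 and 18199 CPM. The miR-122 library was the highest and the others were alike. Its rank was 20, 20 and 15. The brain-enriched miR-128-3p had 12244, 13005 and 13722 counts in control, miR-1 and miR-122, or 7482, 7258 and 7045 CPM. The guide arm miR-9-5p had 8030, 8410 and 8518 counts, or 4907, 4694 and 4373 CPM. The levels of these miRNAs fell in the same order in every library, and each exceeded the next by more than its counting interval, from 3.54-fold between miR-7-5p and miR-218-5p in control (95% interval 3.49 to 3.59) to 1.52-fold between miR-128-3p and miR-9-5p in control (95% interval 1.48 to 1.57).

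After miR-9-5p the levels dropped by more than an order of magnitude. In the control library miR-9-5p had 24.9 times the counts of the next miRNA, its own 3p arm (95% interval 22.3 to 28.0). The counts of miR-9-3p were 322 in control, 248 in miR-1 and 275 in miR-122, and those of the activity-regulated miR-132-3p were 319, 297 and 309. These neighbours did not differ beyond counting error in control (miR-9-3p over miR-132-3p 1.01, 95% interval 0.862 to 1.18) or miR-122 (miR-132-3p over miR-9-3p 1.12, 95% interval 0.952 to 1.33), and miR-132-3p was 1.20-fold the higher in miR-1 (95% interval 1.01 to 1.42). For miR-132-5p there were 174, 164 and 355 counts, the miR-122 library standing apart from the others. Only there did miR-132-5p rank next to miR-9-5p, and its excess over miR-132-3p (1.15-fold, 95% interval 0.984 to 1.34) was within counting error.

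The lowest members were measured with few counts. For miR-129-2-3p there were 59 counts in control, 46 in miR-1 and 31 in miR-122, or 36.1, 25.7 and 15.9 CPM. For the oligodendrocyte-associated miR-219a-5p there were 26, 20 and 14 counts, and for miR-212-3p 22, 13 and 21. In miR-122 the counts of miR-129-2-3p and miR-212-3p also lay within counting error of each other (ratio 1.48, 95% interval 0.822 to 2.70). The last pair could not be ordered in any library, with ratios of 1.18 in control (miR-219a-5p higher, 95% interval 0.644 to 2.19), 1.54 in miR-1 (miR-219a-5p higher, 95% interval 0.728 to 3.37) and an interval of 0.727 to 3.19 in miR-122, where miR-212-3p was the higher. All 10 members nevertheless lay above the 3 counts that a count of 0 allows in every library, and the mean of their 3 counts reached 10 for each. Reads were not calibrated for ligation efficiency, which differs between miRNAs, so an order of levels is an order of sequenced reads.

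**Figure D2:**
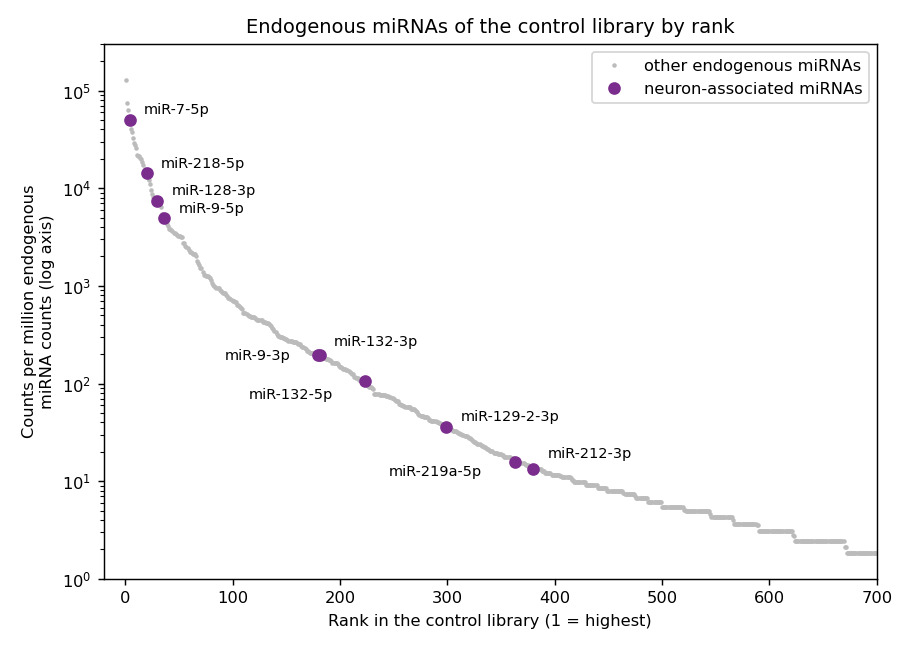
Endogenous miRNAs of the control library in order of level, with the level in CPM on a log axis and ranks up to 700 of the 1071 with any count. The 10 neuron-associated miRNAs (large points) run from rank 4 (miR-7-5p) to rank 380 (miR-212-3p).

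Other miRNAs known from neural tissue were looked up by a list of 19 names. Of these, 8 had a mean count of at least 10 (7 on endogenous rows, and miR-124-3p on a synthetic one). A mean of at least 100 was reached by 2, and 3 (miR-134-5p, miR-384 and miR-433-3p) had no count in any library. Its 18 entries on endogenous rows summed to 0.101%, 0.0899% and 0.0802% of endogenous counts in control, miR-1 and miR-122. The 10 miRNAs above summed to more, but they were chosen partly on their levels, so this gap is partly built in. Without miR-7-5p, miR-218-5p and miR-128-3p, the other 7 of them summed to 0.547%, 0.513% and 0.489%. The highest entries of the list of 19 were miR-598-3p with 1110, 1095 and 1063 counts and miR-149-5p with 282, 355 and 308. The neuron-defining miR-124-3p, which the table lists on a synthetic hairpin that none of these 3 lines carried, had 18, 15 and 12 counts, and miR-137, a regulator of neuronal maturation, had 1, 0 and 0. The other entries past the count minimum were miR-138-5p (85, 47 and 62 counts), miR-346 (76, 45 and 51), miR-338-3p (30, 20 and 22), miR-488-3p (29, 12 and 14) and miR-139-5p (20, 18 and 18).

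For comparison, markers of other cell types were read in the same way. The 6 blood miRNAs summed to 24, 18 and 27 counts in control, miR-1 and miR-122, with miR-223-3p at 0 in all, and the 8 pluripotency miRNAs of the miR-302 and miR-371 clusters to 3, 7 and 9, with 5 of the 8 at 0 in all. The 5 epithelial miRNAs of the miR-200 family and miR-205 summed to 271, 338 and 293 counts, nearly all miR-200c-3p. The 2 arms of miR-126, known from endothelium, summed to 5648, 6637 and 7817, and the smooth muscle and fibroblast pair miR-143-3p and miR-145-5p to 114, 176 and 110. The endocrine miR-375 had 505, 349 and 801 counts.

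Because 6 of the 10 mature sequences are each made from more than 1 hairpin, the table was searched for signs of which hairpin was processed. Partner arms that differ between hairpins give counts for each one separately. Of the miR-7 hairpins, miR-7-1-3p had 90, 89 and 97 counts in control, miR-1 and miR-122, and miR-7-2-3p had 0, 1 and 0, while the table lists no 3p arm of MIR7-3. Of the miR-128 hairpins, miR-128-1-5p had 31, 51 and 56 counts and miR-128-2-5p had 0 in every library. Of the miR-219a hairpins, miR-219a-1-3p had 39, 52 and 55 counts and miR-219a-2-3p had 0 in every library. Apart from the single count of miR-7-2-3p, the counted partner arm in each of these families was thus that of 1 hairpin. For miR-218 both partner arms, miR-218-1-3p and miR-218-2-3p, had 0 counts in the 3 libraries, beside 23178 or more counts of the 5p arm. A count of 0 allowed up to 1.83, 1.67 and 1.54 CPM in control, miR-1 and miR-122. A missing partner arm shows only that it was not detected at this depth.

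The division of reads among hairpins gave a further reading. The authors divided a read that matched several hairpins equally among them, so a read of exactly the mature sequence adds the same amount to each row. A row can exceed another only through reads that matched fewer of the hairpins, such as reads that run on into neighbouring bases. For miR-9-5p the 3 rows were equal in the control library, at 2677 counts each. For miR-7-5p the MIR7-1 row was the highest in each library, at 29257 counts in control against 26349 in the lowest row, a surplus of 3.54% of all miR-7-5p counts (3.63% in miR-1 and 2.99% in miR-122). For miR-128-3p the MIR128-1 row exceeded the MIR128-2 row by 1781 counts in control, 2148 in miR-1 and 2666 in miR-122, which were 14.5%, 16.5% and 19.4% of its counts. For miR-218-5p the surplus of MIR218-1 was 1.10%, 0.964% and 1.76%. The most uneven was miR-219a-5p, with 25.5 of 26 counts, 20 of 20 and 13.5 of 14 in the MIR219A1 row. For miR-7, miR-128 and miR-219a the hairpin with the surplus was also the one whose partner arm was counted.

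The sequences around the shared part show where hairpins of a family differ. No hairpin sequence of MIR7-1 was available, so the miR-7 lines do not cover the hairpin with the miR-7-5p surplus. Below, the mature sequence is in lower case and the 3 bases on each side of it in capitals.
miR-128-3p in MIR128-1: UUCucacagugaaccggucucuuuUUC
miR-128-3p in MIR128-2: GUCucacagugaaccggucucuuuCCC
miR-219a-5p in MIR219A1: UCCugauuguccaaacgcaauucuCGA
miR-219a-5p in MIR219A2: CACugauuguccaaacgcaauucuUGU
miR-7-5p in MIR7-2: AUCuggaagacuagugauuuuguuguuGUC
miR-7-5p in MIR7-3: GUGuggaagacuagugauuuuguuguuCUG
miR-218-5p in MIR218-1: CUGuugugcuugaucuaaccauguGGU
miR-218-5p in MIR218-2: CCUuugugcuugaucuaaccauguGGU
miR-9-5p in MIR9-1: UUAucuuugguuaucuagcuguaugaGUG
miR-9-5p in MIR9-2: UUAucuuugguuaucuagcuguaugaGUG
miR-9-5p in MIR9-3: CUCucuuugguuaucuagcuguaugaGUG
The miR-128 hairpins, the miR-219a hairpins, and MIR7-2 and MIR7-3 each differ from the first base after the 3′ end of the mature sequence. The miR-9 hairpins and the miR-218 hairpins share the first 3 bases there, and yet the miR-9-5p rows were equal to within 0.5 counts while miR-218-5p had the small surplus given above. The ends of single reads were not analysed here, and whether the surplus reads are templated was not tested.

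Arm usage differed widely between the hairpins. One arm prevailed in the most abundant families: there were 912 counts of miR-7-5p per count of miR-7-1-3p in control, 901 in miR-1 and 873 in miR-122, and 395, 255 and 245 counts of miR-128-3p per count of miR-128-1-5p. In these ratios miR-7-5p and miR-128-3p are summed over all hairpins of the family, while each partner arm belongs to 1 hairpin. They are thus not the arm ratios of a single hairpin. For miR-9 the 5p arm held 96.1% of the arms' summed counts in control (95% Wilson interval 95.7% to 96.5%), 97.1% in miR-1 and 96.9% in miR-122. In the low-level hairpins the members listed above were often the smaller arm. The 3p arm of MIR212, the arm with the miR-132 seed, made up 25.9% (95% Wilson interval 17.8% to 36.1%), 16.0% and 17.6% of the counts of its hairpin in control, miR-1 and miR-122, as miR-212-5p had 63, 68 and 98 counts. Likewise miR-219a-1-3p exceeded miR-219a-5p, at 60.0% (95% Wilson interval 47.9% to 71.0%), 72.2% and 79.7% of both arms. For MIR129-2 the 3p arm made up 15.8%, 10.9% and 8.29%, but miR-129-5p (315, 376 and 343 counts) is shared with MIR129-1, whose own miR-129-1-3p had 1, 2 and 3 counts. The sequences of miR-129-1-3p and miR-129-2-3p differ at 1 of 22 positions, so a misread base could move a read between them.

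**Figure D3:**
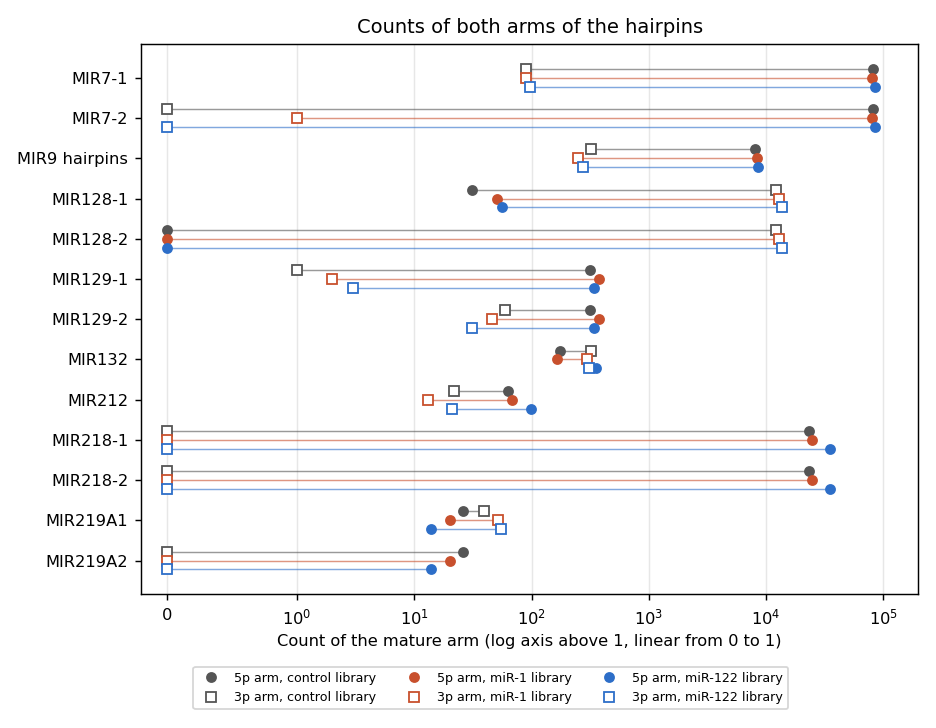
Counts of the 5p arm (filled circles) and 3p arm (open squares) of the hairpins in each library, on an axis that is logarithmic above 1 and linear from 0 to 1. Arms shared between hairpins are drawn once for each; miR-7-2-3p, miR-128-2-5p, miR-219a-2-3p and both miR-218 3p arms lie at 0 or 1.

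The arms of MIR132 were fairly even in every library. Its 3p arm, the usual guide, made up 64.7% of both arms in control (95% Wilson interval 60.4% to 68.8%) and 64.4% in miR-1 (60.0% to 68.7%), but 46.5% in miR-122 (42.8% to 50.3%), where the 5p arm was the larger. The ratio of 5p to 3p was thus 2.10-fold higher in the miR-122 library than in control, a difference of 1.07 on the log2 scale, and 2.08-fold higher than in miR-1. Of 113 hairpins with both arms past the count minimum and 1 row for each arm, a set put together after the values had been seen, 12.4% shifted their arm ratio by at least 2-fold between miR-122 and control, 12.4% between miR-1 and miR-122, and 4.42% between miR-1 and control. In miR-122 to control 12 of the 113, miR-132 included, shifted by as much as miR-132. The arm ratio of the neighbour miR-212 was 1.62-fold higher in miR-122 than in control and 1.80-fold higher in miR-1 than in control. Of the 113 hairpins, miR-212 included, 34 and 9 shifted by at least as much in these comparisons. These ratios rest on 22, 13 and 21 counts of miR-212-3p in control, miR-1 and miR-122. The miRNAs with the shared seed, miR-132-3p and miR-212-3p, summed to 341, 310 and 330 counts in control, miR-1 and miR-122, and miR-132-3p held 14.5, 22.8 and 14.7 counts per count of miR-212-3p.

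The libraries were then compared, which asks whether levels of the neural miRNAs differed where a foreign miRNA was induced. Counts were scaled by TMM on the 514 endogenous miRNAs whose mean count reached 10, and log2 ratios used a pseudocount of 0.5 counts. With 1 library per group there is no replicate check and no test between conditions. The comparisons of miR-1 and of miR-122 with control share the control library. Intervals of ratios are exact conditional (Clopper-Pearson) intervals of counting error, which is very small for the abundant miRNAs. They take the TMM scaling as fixed and leave out its error. An interval that leaves out 1 thus speaks of these libraries at that scaling, and not of the conditions.

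Between the miR-1 and control libraries none of the 10 differed by 2-fold or more, while 3.31% of the 514 did. The abundant members lay near a ratio of 1. The log2 ratio was -0.13 for miR-7-5p (95% interval -0.14 to -0.11), 0.01 for miR-218-5p, -0.01 for miR-128-3p and -0.03 for miR-9-5p. The counting interval left out a ratio of 1 for miR-7-5p and miR-9-3p (log2 -0.47, 95% interval -0.71 to -0.23), or 2 of 10, against 34.4% of the 514. The lowest ratio was that of miR-212-3p, from 22 to 13 counts (log2 -0.83), with a 95% interval from -1.96 to 0.20. The log2 ratio was below 0 for 9 of 10 (50.2% of the 514), with a median of -0.19, and the spread of all 514, as the median absolute deviation scaled to a standard deviation, was 0.31. Scaling moved this count together with that of all miRNAs: by total endogenous count 10 of 10 were below 0 (54.7% of the 514), and under upper quartile scaling 7 of 10 (39.3% of the 514), with miR-9-5p, miR-128-3p and miR-218-5p above it. Members that share a hairpin are not separate measurements.

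Between the miR-122 and control libraries 2 of 10 differed by at least 2-fold, both lower in miR-122, against 9.92% of the 514 in either direction. They were miR-129-2-3p, from 59 to 31 counts (log2 -1.07, 95% interval -1.76 to -0.44), and miR-219a-5p, from 26 to 14 counts (log2 -1.02, 95% interval -2.10 to -0.06). Both lay just past the limit and had low counts, and neither passed it under upper quartile scaling or with a pseudocount of 5. Among the 251 miRNAs with a mean count of 10 to 100, 16.3% differed by at least 2-fold. Of the well counted members, miR-132-5p had the highest ratio, from 174 to 355 counts (log2 0.87, 95% interval 0.60 to 1.14), at percentile 95.5 of the 514 ratios. The log2 ratio of miR-218-5p was also above 0 (0.45, 95% interval 0.43 to 0.48, percentile 81.5), and it was at -0.04 when scaled by the total count with the synthetic hairpins. For miR-7-5p the log2 ratio was -0.11 (95% interval -0.13 to -0.10), for miR-9-5p -0.07, and for miR-128-3p 0.01. The counting interval left out 1 for 7 of 10 members, 5 of them lower, against 47.1% of the 514. Among these members, miR-7-5p and miR-9-5p had log2 ratios of -0.01 and 0.03 under upper quartile scaling. The spread of all log2 ratios was 0.52, and the median of the 10 was -0.16.

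**Figure D4:**
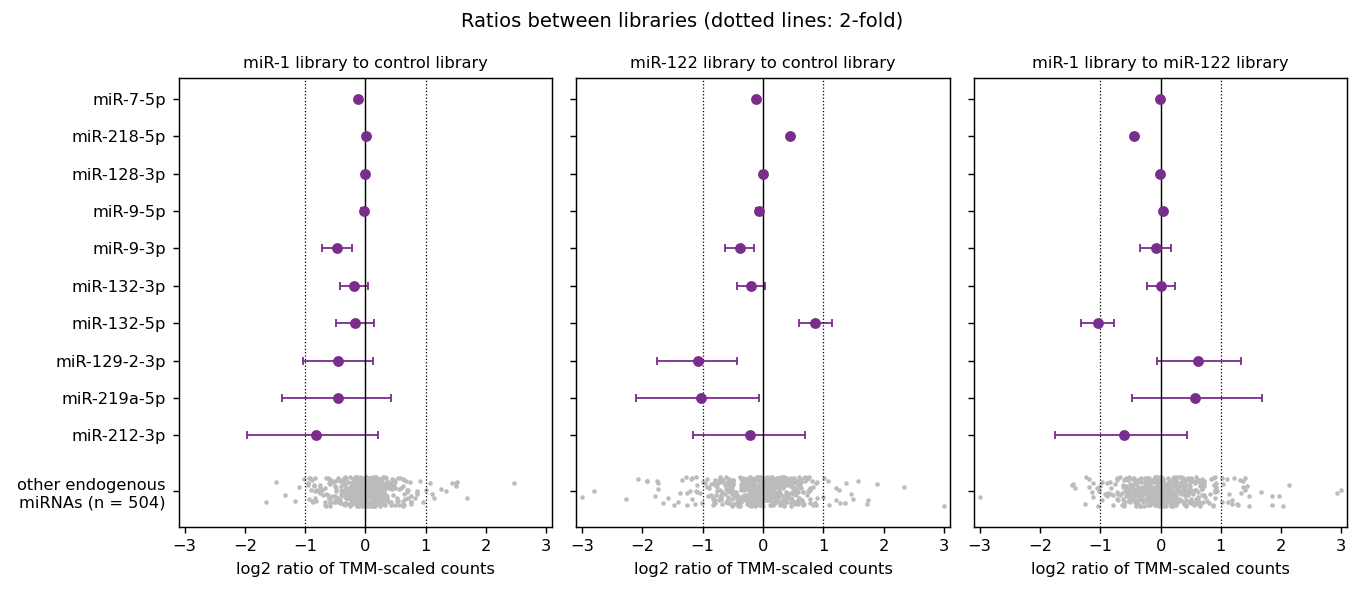
Log2 ratios of TMM-scaled counts for the 10 miRNAs in the 3 comparisons, with bars for 95% intervals of counting error, above the ratios of the other 504 endogenous miRNAs (grey, scattered vertically; 0, 1 and 2 values beyond 3 or -3 are drawn at the edge). The members past the dotted 2-fold lines are miR-129-2-3p and miR-219a-5p in miR-122 to control and miR-132-5p in miR-1 to miR-122.

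Between the miR-1 and miR-122 libraries 1 of 10 differed by at least 2-fold, against 8.56% of the 514. It was miR-132-5p, at 164 and 355 counts (log2 -1.05, 95% interval -1.32 to -0.78), and it was under 2-fold when scaled by the total endogenous count. The counting interval left out 1 for 3 of 10, against 39.3% of the 514: miR-132-5p, miR-218-5p (log2 -0.44, 95% interval -0.47 to -0.42) and miR-9-5p (log2 0.05, 95% interval 0.0038 to 0.09). For miR-7-5p the log2 ratio was -0.01 (95% interval -0.03 to 0.0017).

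Of the further neural list, 7 endogenous miRNAs passed the count minimum. One of the 7, miR-488-3p, was at least 2-fold lower than control in the miR-1 library (log2 -1.33) and in the miR-122 library (log2 -1.18), on 29, 12 and 14 counts. Among the 251 miRNAs of like mean count, 10 to 100, the share past 2-fold in either direction was 5.98% and 16.3% in these comparisons. The median log2 ratio of the 7 was -0.66 between miR-1 and control and -0.59 between miR-122 and control, beside -1.5e-05 and -0.03 over all 514. Only 2 of the 7 had a mean count of at least 100, while the 514 include miRNAs of every depth. Both medians rest on the same control library, so a high control value lowers both. The best counted entries lay nearer to 0: the log2 ratios of miR-598-3p were -0.11 and -0.22, and those of miR-149-5p 0.24 and -0.03. None of the 7 differed by 2-fold between miR-1 and miR-122.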

How the data were processed

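Small RNA-seq was analysed from 3 libraries, 1 per group. Per the study's methods, adapter-trimmed reads of 18 nt or more were collapsed, and miRDeep2 counted them on miRBase release 21 human hairpins with the synthetic ones appended; the labels name hg19. The authors' deposited estimated counts divide a read among all hairpins it matches (fractions in 309 of 2817 rows and 15 of the 19 rows of the 10 miRNAs). Deposited RPM values are scaled to all miRNA counts, synthetic hairpins included, and were used only where named. A pooled total was not used.

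Counts were summed over hairpins. Endogenous miRNAs whose mean count reached 10 were scaled by TMM (edgeR 4.0.16, R 4.3.3), and log2 ratios used a pseudocount of 0.5. Exact intervals used counts rounded to whole numbers (scipy 1.17.1). No p-value was computed. The scaling, the log2 ratios and the intervals of ratios were tested on simulated counts with known folds. Named miRNAs were all 10 members, their partner arms, miRNAs sharing a seed, the neighbours of miR-7-5p in level and ratio, and the entries of a neural list past the count minimum. From below that minimum, miR-137 and the list entries without any count were named too. Markers of other cell types and other miRNAs encoded near the hairpins were also named. The members and lists were chosen with earlier results of these data known.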

Additional observations from a re-analysis of the deposited data

How the results depend on the processing

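There was no replicate to leave out, and the error between cultures is unknown. No paired analysis was possible because there was 1 library in each group. Intervals cover counting only, and at under 100 counts a 2-fold difference is poorly measured. Over 43 results 300 alternatives were computed, of which 223 stayed within the limits (1.5 times for counts of miRNAs, otherwise the 95% counting interval). No 2-fold ratio changed sign. Of 207 alternatives for log2 ratios of the 9 members other than miR-7-5p, 33 moved and 18 took the other sign, all of miR-9-5p, miR-128-3p, miR-132-3p or miR-218-5p. Causes were not tested except where the alternative's construction shows them.

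With the synthetic hairpins in the denominator, the 10 miRNAs held 4.40% (miR-1) and 5.56% (miR-122) of counts, and miR-7-5p 2.77% and 3.29%. With only the highest hairpin row of each mature miRNA, the 10 held 3.65%, 3.37% and 3.56% in control, miR-1 and miR-122, and miR-7-5p 2.08%, 1.85% and 1.78%, because its rows are no longer added.

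The log2 ratio of miR-7-5p from miR-1 to control was -0.16 by total endogenous count, -0.032 by upper quartile, -0.85 by total count with the synthetic hairpins and -0.0892 at a mean count of at least 100. From miR-122 to control these were -0.21, -0.0114, -0.61 and -0.0935, and -0.14 by highest row. From miR-1 to miR-122 it was 0.0424 by total endogenous count, -0.24 with the synthetic hairpins, 0.0104 without a filter, 0.0043 at a mean of at least 100 and 0.0115 by highest row.

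Total counts with the synthetic hairpins shifted the median of all miRNAs by -0.72 for miR-1 against control, -0.49 for miR-122 against control and -0.23 for miR-1 against miR-122. Of the 10, 4 were then past 2-fold in miR-1 to control. Of all 514 miRNAs, 106 and 101 were past it in the comparisons of miR-1 and of miR-122 with control, beside 17 and 51 in the main setting. In miR-122 to control 0 of the 10 passed under upper quartile scaling or a pseudocount of 5, beside 45 and 35 of the 514. In miR-1 to miR-122, 0 of the 10 passed by total endogenous count, beside 39 of the 514. A mean of at least 100 left 7 of the 10 and removed miR-129-2-3p and miR-219a-5p, so that setting could not check their ratios. At 1.5-fold, 1 and 3 of the 10 passed in the comparisons of miR-1 with control and with miR-122. The 1.5-fold limit was passed by 86, 137 and 118 of all 514 miRNAs for miR-1 against control, miR-122 against control and miR-1 against miR-122. In the same order, 427, 497 and 466 of 1351 passed 2-fold without a filter, and 2, 10 and 8 of 263 at a mean of at least 100. With a pseudocount of 5, 8 of the 514 passed 2-fold for miR-1 against control and 28 for miR-1 against miR-122.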

Other observations

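Few other miRNAs carried a seed of the 10. Besides miR-132-3p with miR-212-3p, the seed of miR-128-3p was shared by miR-216a-3p, with 5, 9 and 6 counts in control, miR-1 and miR-122, and miR-3681-3p, with 0 in each. That of miR-219a-5p was shared by miR-4782-3p, with 0, 1 and 0 counts, and miR-6766-3p, with 2, 0 and 2, and that of miR-129-2-3p by miR-129-1-3p, with 1, 2 and 3. The counts of each of these seeds thus came mainly from the named neural miRNA.

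Apart from MIR132 and MIR212, which neighbour each other, other miRNA genes within 10 kb of the hairpins had few counts. Near MIR7-2 they were miR-1179, with 2, 0 and 2 counts, and both arms of miR-3529 on the opposite strand, with 0 in each library. Opposite MIR219A2, miR-219b-5p had 8, 11 and 5 counts.

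Of 262 other endogenous miRNAs whose mean count reached 100, those closest to miR-7-5p in the log2 ratios of miR-1 and of miR-122 to control were miR-197-3p (distance 0.013), miR-708-5p (0.044) and miR-196b-5p (0.047). The measure rests on 3 libraries that share 1 control, and most ratios lie near 0.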
